A study of Mus musculus with 6 samples.

Results

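Solute carriers are membrane proteins that move amino acids, sugars, ions, metals, vitamins and metabolites across the plasma membrane or into organelles, mostly as exchangers or as cotransporters driven by an ion gradient. Genes named Slc are numbered by family, and members of a family usually share a substrate class. In the lung they carry, among other things, the phosphate released from recycled surfactant, the bicarbonate and chloride of the airway lining fluid, and the metals held back from microbes in macrophage phagosomes.

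The set was taken as all genes whose symbol in the array's annotation is Slc followed by a digit, apart from Slc10a6, and it held 261 of the 12393 genes measured, in 49 families. For 418 probe sets with a single Slc symbol, the brightest one of each gene by its mean on all 6 arrays stood for the gene. The symbol rule also took in Slc9a3r1, Slc9a3r2 and Slc4a1ap, which encode binding or scaffold proteins of transporters rather than carriers. Whole families were put into 10 substrate classes, so a class can hold some carriers of other substrates. The rule for members uses gene symbols and no measured value.

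The tested mice received bleomycin at 1 mg/kg in 50 µl of saline into the airways, and the control mice received saline, with 3 mice in each group and killing at day 14. All were wild-type C57BL/6J mice labelled male and 8 to 10 weeks old. Delivery is given as oropharyngeal in one part of the labels and as intratracheal in another. Bleomycin breaks DNA and scars the lung when it reaches the alveoli, and the series asks how lung gene expression differs in the fibrotic phase. Whole lung without the trachea and major airways was measured on 1 Affymetrix MOE430A array per mouse, called D, E and F after bleomycin and A, B and C after saline, and the number of arrays limits the precision.

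The arrays had medians of 7.37 to 7.41 log2 units. Correlations across probe sets were 0.986 to 0.995 among bleomycin arrays, 0.987 to 0.989 among saline arrays and 0.965 to 0.985 between the groups. Bleomycin D lay farthest out on the first principal component, at 44.3, with E at 12.9 and F at 19.8, against -28.6 to -21.4 in saline. Saline B went against its label as male, with Xist at 11.40 and the Y-linked gene Eif2s3y at 4.05, where the other arrays had 7.23 to 7.88 and 7.23 to 8.02. The 3′ minus 5′ signal of Gapdh, a measure of RNA quality, was 0.81 to 1.10 log2 units in bleomycin and 0.88 to 1.46 in saline lungs. That of Actb was 1.04 to 1.27 in bleomycin and 1.14 to 1.71 in saline lungs. In both measures saline A and C stood above every bleomycin array, so RNA quality differed partly along the comparison. The label of lung tissue was borne out by the list of alveolar type 2 cell genes, whose mean value was 11.57 to 12.15 in bleomycin and 12.06 to 12.17 in saline lungs, and 0 of the 9 rose or fell in limma (0 and 1 at an unadjusted p under 0.05). In whole lung, fewer cells of a type and less RNA per cell cannot be told apart.

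At an adjusted p of 0.05 or less in limma, 20 of the 261 solute carrier genes (7.66%) differed between bleomycin and saline lungs, against 694 of all 12393 genes (5.6%). Of the 261 genes, 9 rose (3.45%, against 3.7% of all genes) and 11 fell (4.21%, against 1.9% of all genes). At an unadjusted p under 0.05 in limma, 20 members were higher and 47 lower, against 1456 and 1363 of all 12393 genes. The 3 bleomycin arrays lay wholly above the 3 saline arrays for 24 members and wholly below for 54, together 29.9%, against 27.9% of all genes. Differences of the members, bleomycin minus saline, had a median of -0.08 log2 units, a lowest value of -1.61 and a highest of 2.40, and the median over all genes was -0.04. Negative differences were found for 180 of 261 members (69.0%) and for 7060 of 12393 genes (57.0%).

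The counts moved with the scaling and with single arrays. Centring the arrays on ribosomal protein genes moved the median difference of all genes by -0.13 log2 units. It gave 5 members higher and 17 lower (306 and 378 over all genes, where the values as deposited gave 458 and 236), and 16 of the 20 calls were kept. With saline B left out, 3 members were higher and 4 lower (306 and 98 over all genes). Leaving out bleomycin D gave 5 members higher and 2 lower (299 and 87 over all genes). Leaving out E gave 8 and 6 (385 and 165 over all genes), and F gave 2 and 2 (211 and 62). Leaving out saline A gave 3 and 1 (163 and 22 over all genes), and C gave 6 and 1 (266 and 93). All 20 called genes kept their direction in each of these fits. Leaving out an array could not reverse it, because the groups do not overlap for these genes.

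**Figure D1:**
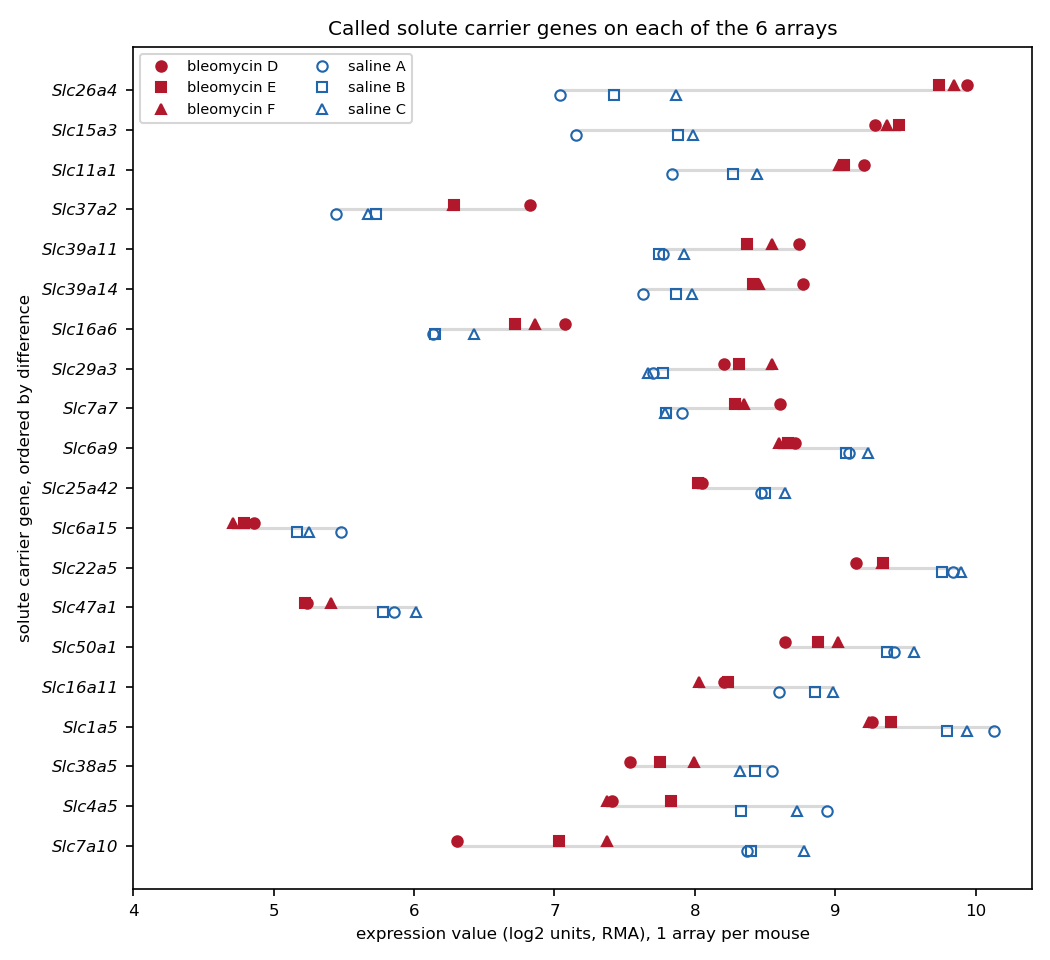
Expression values (log2 units) of the 20 called solute carrier genes on each array, with bleomycin mice as filled red symbols and saline mice as open blue symbols, ordered by difference. The bleomycin and saline arrays do not overlap for any of the 20 genes, which were called on these same arrays. Over all genes, the groups do not overlap for 27.9%. Slc26a4, at the top, has bleomycin values of 9.74 to 9.94 and saline values of 7.04 to 7.86.

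The largest rise and the largest fall among the members, and the one amino acid transporter gene that rose, are shown by the start of the gene, because the later comparisons turn on them. The stretches run from 250 bases before to 50 bases after the start in RefSeq (GRCm38.p6), 5′ to 3′ on the strand of the gene. Capitals mark matches to TATAAA, the TATA box, or to TGATGNAA, the core of the element through which amino acid shortage acts on genes, searched on both strands.
Slc26a4, chr12:31559935-31560234, minus strand: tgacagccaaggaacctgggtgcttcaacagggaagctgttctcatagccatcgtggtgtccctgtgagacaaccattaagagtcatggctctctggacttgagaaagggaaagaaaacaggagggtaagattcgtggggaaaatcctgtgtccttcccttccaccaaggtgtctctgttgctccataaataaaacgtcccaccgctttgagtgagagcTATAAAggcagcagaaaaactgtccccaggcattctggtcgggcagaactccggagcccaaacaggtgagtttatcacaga
Slc7a7, chr14:54417895-54418194, minus strand: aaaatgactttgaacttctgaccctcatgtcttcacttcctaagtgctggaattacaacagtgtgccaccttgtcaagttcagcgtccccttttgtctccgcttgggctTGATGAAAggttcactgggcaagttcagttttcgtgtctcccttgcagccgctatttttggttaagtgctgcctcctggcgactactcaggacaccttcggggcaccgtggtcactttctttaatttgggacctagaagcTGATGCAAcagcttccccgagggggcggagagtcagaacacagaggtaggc
Slc7a10, chr7:35186135-35186434, plus strand: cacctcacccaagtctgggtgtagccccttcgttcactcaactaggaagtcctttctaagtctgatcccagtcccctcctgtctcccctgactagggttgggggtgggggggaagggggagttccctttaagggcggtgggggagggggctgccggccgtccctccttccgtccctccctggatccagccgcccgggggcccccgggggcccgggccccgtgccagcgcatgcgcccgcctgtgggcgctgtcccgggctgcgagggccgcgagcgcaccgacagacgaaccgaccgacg
The Slc26a4 stretch held TATAAA at -31 to -26, a motif found in 13.6% of the 32851 such stretches in the RefSeq table. The first of the Slc7a7 starts held TGATGAAA at -141 to -134 and TGATGCAA at -1 to 7, and 3.97% of all stretches held that motif. In the Slc7a10 stretch neither motif was found, and its content of G and C was 70.7%, against 50.0% in that of Slc26a4. Also searched on both strands were CACGTG, the E-box (7.15% of all stretches), and GAGGAAG, a purine core of PU.1 sites (13.6%), and the 3 stretches shown held neither. Of the 5 starts listed for Slc7a7, some of whose stretches overlap, 3 others held GAGGAAG, and TGATGNAA was found in 2, the one shown among them. TGATGNAA was found in 2.93% of the 273 starts listed for 205 members. Starts were listed for 14 of the 20 called genes, and Slc15a3 was not among them. Of the called genes that fell, Slc4a5 also held TATAAA and Slc50a1 held TGATGNAA.

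Ion carriers gave the largest rise of the set. Slc26a4 encodes pendrin, an exchanger of chloride for bicarbonate and iodide that lines airway, kidney and inner ear epithelia. It had 9.94, 9.74 and 9.84 log2 units in bleomycin lungs D, E and F, against 7.04, 7.42 and 7.86 in saline lungs A, B and C. The bleomycin lungs were close together (SD 0.10, n = 3) and all stood above every saline lung (SD 0.41, n = 3). Slc26a4 was thus 5.28-fold higher after bleomycin (2.40 ± 0.19 log2 units, SE, limma adjusted p = 0.000787). It passed in each of the 6 fits with an array left out, with differences of 2.20 to 2.61. The list of airway epithelial genes had a mean of 10.89 to 11.08 in bleomycin and 11.33 to 11.60 in saline lungs. In limma, 0 of its 9 genes were higher and 2 lower (0 and 4 at an unadjusted p under 0.05). The part of airway cells in the rise of Slc26a4 was not tested.

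The largest fall among ion carriers was that of Slc4a5, an electrogenic sodium-bicarbonate cotransporter. Its values were 7.41, 7.83 and 7.37 in bleomycin lungs, against 8.94, 8.32 and 8.73 in saline lungs, so the groups were separate by about the spread within them. It fell by 1.13 log2 units (SE 0.19, limma adjusted p = 0.0149), and it had an adjusted p of 0.0656 without saline A, 0.0537 without saline C and 0.0607 without bleomycin F. Slc26a4 and Slc4a5 were the only calls among the 42 ion and phosphate carriers (2.38% higher and 2.38% lower, against 3.7% and 1.9% of all genes), whose median difference was -0.09. With 1 array left out, Slc26a4 was the call in the higher direction each time, and 0 to 3 genes of the class were lower (3 without bleomycin E).

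Slc9a3r2 and Slc12a5 lay just outside the threshold on the lower side. Slc9a3r2, a scaffold that ties sodium-proton exchangers to the cytoskeleton, had 10.00, 10.62 and 10.55 in bleomycin lungs, against 11.17, 10.98 and 11.18 in saline lungs. Its difference was -0.72 ± 0.17 (SE, limma adjusted p = 0.0515), and another of its 6 probe sets was called at -0.56 (adjusted p = 0.048). Slc12a5, a potassium-chloride cotransporter known from neurons, differed by -0.81 ± 0.21 (SE, limma adjusted p = 0.0674), with 6.47 on bleomycin D, 7.31 on E and 6.98 on F, against 7.53 to 7.95 in saline lungs. The second probe set of Slc12a5, with a mean signal of 5.29, differed by 0.01 (limma adjusted p = 0.968). Slc34a2, the sodium-phosphate cotransporter of alveolar type 2 cells, had 12.35, 12.76 and 12.68 in bleomycin lungs, against 13.08, 12.88 and 13.21 in saline lungs. All bleomycin values were lower, but the difference of -0.46 ± 0.14 did not pass (SE, limma adjusted p = 0.114).

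Other ion carriers of known lung or blood function did not pass. Slc12a2, the sodium-potassium-chloride cotransporter that loads secreting epithelia with chloride, differed by -0.43 ± 0.18 (SE, limma adjusted p = 0.216), with overlapping groups. Slc9a3r1, a scaffold related to Slc9a3r2, differed by 0.07 ± 0.10 (SE, limma adjusted p = 0.749). Slc4a1, the anion exchanger of red cells, differed by -0.18 ± 0.14 (SE, limma adjusted p = 0.507), beside a red cell list at 6.23 to 6.25 in bleomycin and 6.18 to 6.50 in saline lungs. Of its 9 genes 5 were measured. Rhag (mean 3.93), Hba-a1 (5.21) and Epb42 (5.58) had a low signal, and Alas2 (8.32) and Ank1 (8.48) a higher one, which limits the list as a reading of red cells. Slc8a1, the sodium-calcium exchanger of heart muscle, differed by -0.32 ± 0.15 (SE, limma adjusted p = 0.276), beside a list of cardiac muscle genes at 7.93 to 8.50 in bleomycin and 8.55 to 9.41 in saline lungs. The 8 members of family 12, the cation-chloride cotransporters, had 0 calls in limma (0 higher and 2 lower at an unadjusted p under 0.05).

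**Figure D2:**
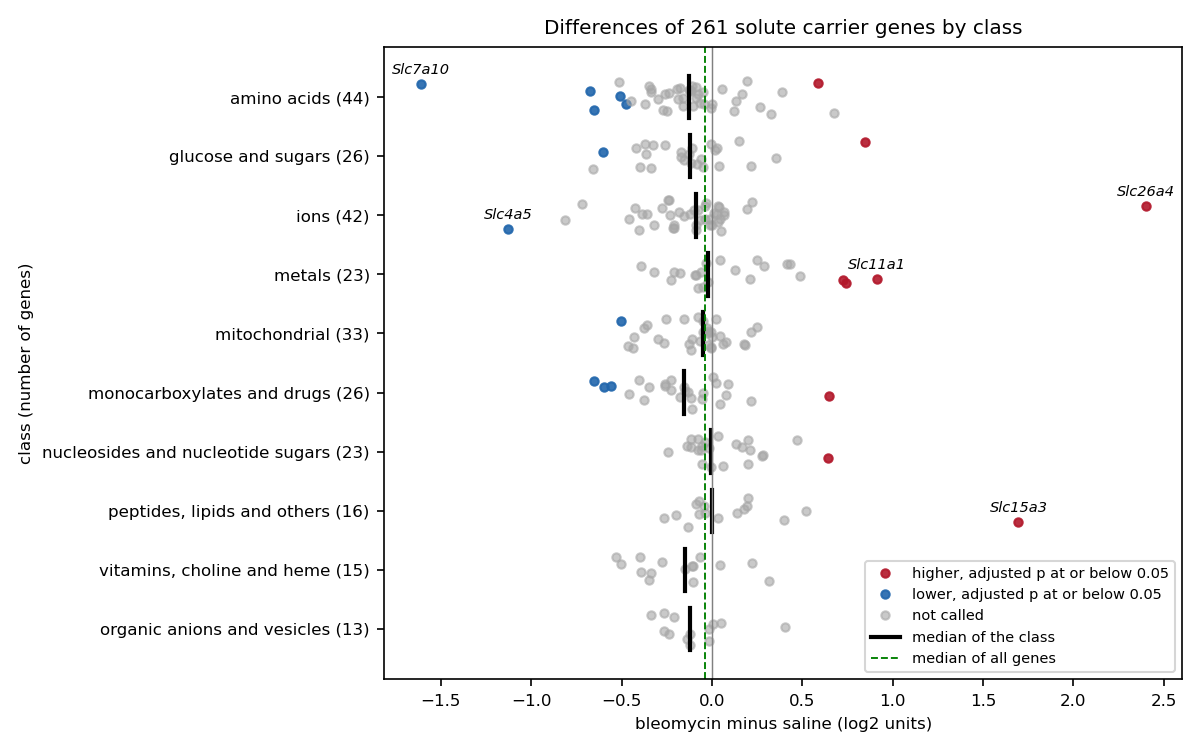
Bleomycin minus saline differences (log2 units) of all 261 solute carrier genes in 10 substrate classes, each point a gene, with called genes in red (higher) and blue (lower), a black bar at the median of each class and a dashed line at the median of all genes. Slc26a4 at 2.40 and Slc15a3 at 1.70 stand apart on the right, and Slc7a10 at -1.61 and Slc4a5 at -1.13 on the left.

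Amino acid transporters were called mostly in the lower direction. Of 44 genes in these families, 5 fell (11.4%, against 1.9% of all genes) and 1 rose (2.27%, against 3.7% of all genes). The class median was -0.13 log2 units. Centred on ribosomal protein genes, 6 were lower and 0 higher. With 1 array left out, 0 (saline A), 1 (saline C or bleomycin D) or 2 (saline B or bleomycin E or F) were lower, and 1 was higher without bleomycin E alone. Slc7a10 exchanges small neutral amino acids such as glycine, serine and alanine. It had 6.31, 7.03 and 7.37 in bleomycin lungs D, E and F, against 8.37, 8.40 and 8.78 in saline lungs A, B and C. Bleomycin D was the lowest, and its group was the more spread (SD 0.54 in bleomycin and 0.23 in saline, n = 3 each). The difference was -1.61 ± 0.25 (SE, limma adjusted p = 0.0125), and it did not pass in the fit that left out saline A (adjusted p = 0.0586). Without bleomycin D it was -1.31 (limma adjusted p = 0.00941). Slc7a10 is known from fat cells, and the list of fat cell genes stood at 7.34 to 7.80 in bleomycin and 7.68 to 7.90 in saline lungs, with 1 of 6 genes lower. Its part in the fall was not tested.

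Slc1a5 and Slc38a5, which carry glutamine and other neutral amino acids, also fell. Slc1a5, a sodium-dependent exchanger through which many dividing cells take up glutamine, had 9.26, 9.40 and 9.24 in bleomycin lungs, against 10.13, 9.79 and 9.94 in saline lungs. It fell by 0.65 log2 units (SE 0.12, limma adjusted p = 0.0227), and its adjusted p was 0.069 without saline A, 0.0675 without saline C, 0.0603 without bleomycin D and 0.0906 without bleomycin F. Slc38a5, a sodium-coupled carrier of glutamine, had 7.54, 7.75 and 7.99 in bleomycin lungs, against 8.55, 8.42 and 8.32 in saline lungs. The groups were separate, and it fell by 0.67 (SE 0.14, limma adjusted p = 0.0333). With an array left out, Slc38a5 passed only without bleomycin F, and adjusted p lay between 0.0666 and 0.0998 without saline A, B or C or bleomycin D or E.

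Both called members of family 6, the sodium- and chloride-dependent carriers, also fell. Slc6a9, a glycine carrier, had 8.71, 8.66 and 8.60 in bleomycin lungs, against 9.10, 9.08 and 9.23 in saline lungs. It fell by 0.48 (SE 0.10, limma adjusted p = 0.0383), while its second probe set differed by -0.19 (adjusted p = 0.306). Slc6a15, a carrier of branched-chain amino acids and proline known from brain, had 4.86, 4.79 and 4.71 in bleomycin lungs, against 5.48, 5.17 and 5.25 in saline lungs. That is a low signal, and the fall of 0.51 (SE 0.12, limma adjusted p = 0.0478) did not pass when quantile normalization was repeated (adjusted p = 0.103). Neither gene passed in a fit with any 1 of the 6 arrays left out, with adjusted p of 0.0708 to 0.138 for Slc6a9 and 0.0646 to 0.156 for Slc6a15. The 15 genes of this family also include Slc6a4, the serotonin transporter of lung endothelium and platelets, which differed by -0.12 ± 0.18 (SE, limma adjusted p = 0.748). All 6 members of family 1 (median -0.15) and all 6 of family 38 (median -0.25) had negative differences. Of all members 69.0% were negative, and of all genes 57.0%. Outside this class, all 5 members of family 17 and all 4 of family 44 were negative too. In family 38, Slc38a4, a carrier of neutral and cationic amino acids, was not called through its brighter probe set (-0.34, limma adjusted p = 0.102) but was lower through the other (-0.82, adjusted p = 0.0122), where the mean signal was 4.93. It was chosen after its values were seen.

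Slc7a7 was the amino acid transporter that rose. It encodes the light chain of an exchanger that exports arginine and lysine, and human loss of it leads to a lung disease with surfactant filling the alveoli. It had 8.61, 8.28 and 8.35 in bleomycin lungs, against 7.91, 7.80 and 7.78 in saline lungs. The rise was 1.50-fold (0.58 ± 0.12 log2 units, SE, limma adjusted p = 0.0333). Slc7a7 passed only without bleomycin E among the fits with an array left out, with adjusted p of 0.0762 to 0.0988 without saline A, B or C or bleomycin D or F, and it did not pass when arrays were centred on ribosomal protein genes (adjusted p = 0.0888). Its heavy chain partner Slc3a2 had 11.27, 11.26 and 11.39 in bleomycin lungs, against 11.62, 11.21 and 11.12 in saline lungs, a difference of -0.01 ± 0.14 (SE, limma adjusted p = 0.981).

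Other carriers of arginine and cystine did not pass. Slc7a2, the cationic amino acid transporter induced in activated macrophages, had 7.56, 6.78 and 6.76 in bleomycin lungs, against 6.41, 6.26 and 6.41 in saline lungs. Every bleomycin lung was above every saline lung, with D the highest, but the difference of 0.67 ± 0.21 did not pass (SE, limma adjusted p = 0.108), and it was 0.41 without bleomycin D. Slc7a11, the cystine-glutamate exchanger, differed by 0.16 ± 0.13 (SE, limma adjusted p = 0.493), Slc7a5, a large neutral amino acid exchanger, by 0.12 ± 0.11 (SE, adjusted p = 0.587), and its relative Slc7a8 by 0.26 ± 0.14 (SE, adjusted p = 0.32). Slc1a3, a glutamate carrier, differed by -0.09 ± 0.15 (SE, limma adjusted p = 0.767) and Slc6a14, an epithelial carrier of neutral and cationic amino acids, by 0.13 ± 0.15 (SE, adjusted p = 0.657). Among 16 genes of the response to amino acid shortage, 2 rose, Atf3 by 0.92 and Psat1 by 1.12 log2 units, and 1 fell, Vldlr, by 0.87, while Atf4 itself differed by -0.18 (limma adjusted p = 0.446).

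**Figure D3:**
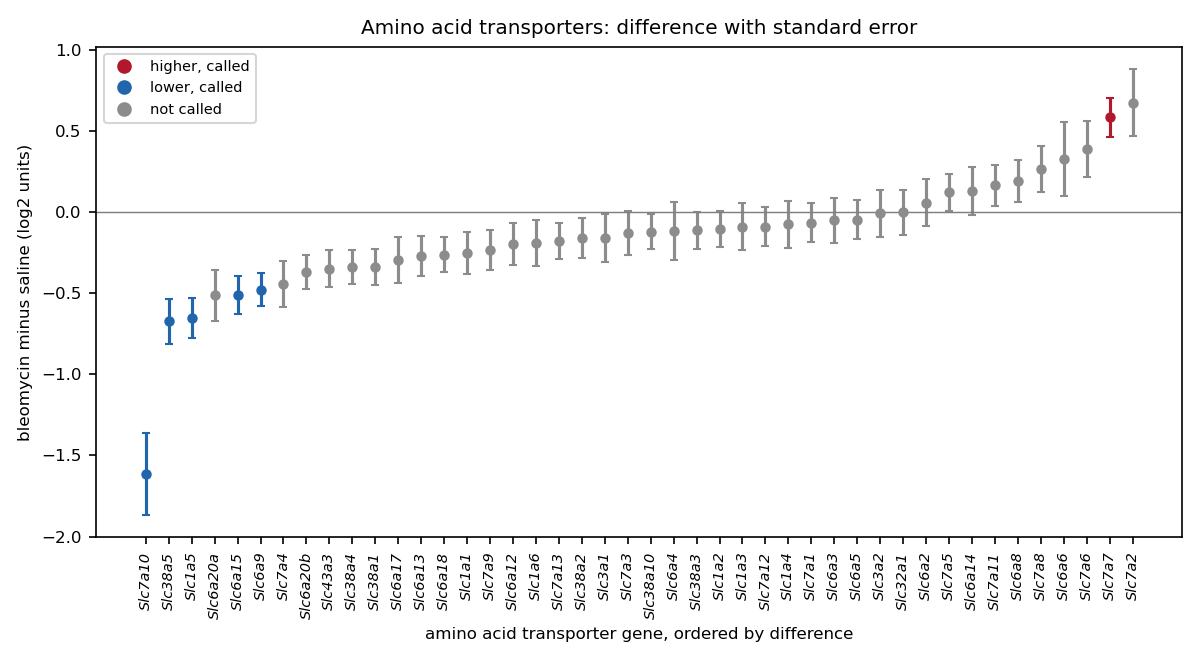
Bleomycin minus saline difference (log2 units) with its moderated standard error for each of the 44 genes of the amino acid transporter families, ordered by difference, with called genes in blue (lower) and red (higher). Slc7a10 lies at -1.61, apart from the others, and the red point Slc7a7 at 0.58 stands beside the uncalled Slc7a2 at 0.67.

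Metal carriers were called in the higher direction alone: 3 of 23 genes rose (13%, against 3.7% of all genes) and 0 fell in limma (1 lower at an unadjusted p under 0.05), while the class median was -0.02. With 1 array left out, 3 rose without saline C or bleomycin E, 1 without saline A or B or bleomycin D, and 0 without bleomycin F. Slc11a1 encodes a carrier that removes iron and manganese from the phagosome of macrophages and neutrophils. It had 9.21, 9.06 and 9.02 in bleomycin lungs, against 7.84, 8.27 and 8.44 in saline lungs. The bleomycin lungs were close together and all above the saline lungs, and Slc11a1 rose 1.88-fold (0.91 ± 0.16 log2 units, SE, limma adjusted p = 0.019). It did not pass without bleomycin D (adjusted p = 0.0529) or F (0.0593).

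The importers of zinc that rose belong to family 39, with 2 of 10 genes called. Slc39a14, which also carries iron and manganese and is known as an acute-phase gene of liver, had 8.77, 8.41 and 8.46 in bleomycin lungs, against 7.63, 7.86 and 7.98 in saline lungs. It rose 1.65-fold (0.72 ± 0.14 log2 units, SE, limma adjusted p = 0.0281), while its second probe set differed by 0.13 (adjusted p = 0.657). Slc39a14 passed without saline C or bleomycin E, had adjusted p of 0.0639 to 0.0882 without saline A or B or bleomycin D or F, and had 0.0514 with arrays centred on ribosomal protein genes. Slc39a11, of the same family, had 8.74, 8.37 and 8.55 in bleomycin lungs, against 7.77, 7.74 and 7.92 in saline lungs. Its rise was 1.67-fold (0.74 ± 0.13 log2 units, SE, limma adjusted p = 0.0164), and its adjusted p was 0.0678 without saline A, 0.051 without saline B and 0.0636 without bleomycin F.

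Among the metal carriers that did not pass, Slc40a1, the iron exporter ferroportin of macrophages, had 8.23, 7.81 and 8.37 in bleomycin lungs, against 7.44, 7.71 and 7.82 in saline lungs. The groups overlapped by a single pair of lungs, E and C, and the difference was 0.49 ± 0.17 (SE, limma adjusted p = 0.146). Slc11a2, the importer of ferrous iron, differed by 0.21 ± 0.13 (SE, limma adjusted p = 0.395). Slc39a8, an importer of zinc and manganese abundant in lung, differed by -0.32 ± 0.15 (SE, limma adjusted p = 0.258). The 8 zinc exporters of family 30 had 0 calls in limma (1 higher and 0 lower at an unadjusted p under 0.05).

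The class of peptide, lipid and other carriers held the second largest rise. Slc15a3, which moves histidine and small peptides out of lysosomes and endosomes of immune cells, had 9.28, 9.45 and 9.37 in bleomycin lungs, against 7.16, 7.88 and 7.98 in saline lungs. Bleomycin lungs differed little (SD 0.08, n = 3), and saline A was the lowest of the saline lungs (SD 0.45, n = 3). Slc15a3 rose 3.24-fold (1.70 ± 0.20 log2 units, SE, limma adjusted p = 0.00415) and passed in each of the 6 fits with an array left out, with differences of 1.44 to 1.85. Its close relative Slc15a4, of the same compartments, was not called, with a difference of 0.52 and separate groups (limma adjusted p = 0.109). This gene was chosen after its values were seen. Slc15a3 was the only call among the 16 genes of the class (6.25% higher, against 3.7% of all genes, with 0 lower in limma and 0 lower at an unadjusted p under 0.05). The fatty acid transport protein Slc27a3 differed by -0.07 ± 0.15 (SE, limma adjusted p = 0.82).

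Several of the genes that rose are known from macrophages, and macrophage genes were higher in the same lungs. Of 18 macrophage markers, 12 rose and 0 fell in limma (12 higher and 0 lower at an unadjusted p under 0.05), and their mean value was 9.60 to 9.79 in bleomycin and 8.20 to 8.41 in saline lungs. This stands beside Slc15a3, Slc11a1, Slc37a2, Slc7a7 and Slc29a3, and its part in their rises was not tested. Cell cycle genes were higher too (7 of 13 rose, mean 7.45 to 7.93 in bleomycin and 6.41 to 6.78 in saline lungs). Endothelial genes were lower, with 3 of 12 fallen and means of 10.16 to 10.27 in bleomycin and 10.50 to 10.79 in saline lungs, and platelet genes stood at 7.67 to 8.08 in bleomycin and 8.33 to 8.57 in saline lungs, with 1 of 7 fallen. Of 10 fibroblast genes 3 rose and 4 fell, and of 8 lymphocyte genes 0 were called in limma (1 higher and 0 lower at an unadjusted p under 0.05). The part of these cells in the changes of solute carriers was not tested.

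Of 26 carriers of glucose and other sugars, 1 rose (3.85%, near the 3.7% of all genes) and 1 fell (3.85%, against 1.9%). Slc37a2, a sugar-phosphate exchanger of the endoplasmic reticulum that is abundant in macrophages, had 6.82, 6.28 and 6.27 in bleomycin lungs, against 5.44, 5.73 and 5.67 in saline lungs. It rose 1.80-fold (0.85 ± 0.17 log2 units, SE, limma adjusted p = 0.0301), with bleomycin D the highest, and the difference was 0.66 without D. Slc37a2 passed without bleomycin D or E, and had adjusted p of 0.0558 to 0.0992 without saline A, B or C or bleomycin F. Slc50a1, a sugar efflux carrier, had 8.64, 8.88 and 9.02 in bleomycin lungs, against 9.42, 9.37 and 9.56 in saline lungs. It fell by 0.60 (SE 0.13, limma adjusted p = 0.0354) and passed in none of the 6 fits with an array left out (adjusted p of 0.0601 to 0.109).

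The facilitative glucose transporters of family 2 had 0 calls among 8 genes in limma (1 higher and 3 lower at an unadjusted p under 0.05). Slc2a1, the widespread glucose transporter, had 8.55, 8.66 and 8.67 in bleomycin lungs, against 8.30, 8.13 and 8.39 in saline lungs. The groups were separate, but the difference of 0.35 ± 0.11 did not pass (SE, limma adjusted p = 0.115). The dimmer probe sets of Slc2a1 differed by 0.71 (limma adjusted p = 0.095) and 0.46 (adjusted p = 0.0902) and did not pass. Slc2a3, the high-affinity transporter of neurons and leukocytes, had 7.57, 7.91 and 8.82 in bleomycin lungs, against 8.50, 8.53 and 9.26 in saline lungs. Its groups overlapped, each with a wide spread (SD 0.65 in bleomycin and 0.43 in saline, n = 3 each), and the difference was -0.66 ± 0.32 (SE, limma adjusted p = 0.283). The sodium-coupled carriers of family 5 had 0 calls among 11 genes in limma (0 higher and 2 lower at an unadjusted p under 0.05).

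Carriers of monocarboxylates, carnitine and drugs had 3 genes lower among 26 (11.5%, against 1.9% of all genes) and 1 higher (3.85%, against 3.7%). With any 1 array left out, 0 or 1 were lower. Slc16a11, a monocarboxylate transporter relative, had 8.21, 8.24 and 8.03 in bleomycin lungs, against 8.60, 8.86 and 8.98 in saline lungs. It fell by 0.65 (SE 0.13, limma adjusted p = 0.0303) and passed only without saline A among the fits with an array left out, with adjusted p of 0.053 to 0.111 without saline B or C or bleomycin D, E or F. Slc16a6, of the same family, had 7.07, 6.72 and 6.86 in bleomycin lungs, against 6.13, 6.15 and 6.43 in saline lungs. It went the other way, with a 1.57-fold rise (0.65 ± 0.13 log2 units, SE, limma adjusted p = 0.0341). The rise passed without saline C or bleomycin E, with adjusted p of 0.0861 to 0.101 without saline A or B or bleomycin D or F, and did not pass with arrays centred on ribosomal protein genes (adjusted p = 0.0834). The lactate transporters Slc16a1 and Slc16a3 differed by 0.08 ± 0.21 (SE, limma adjusted p = 0.868) and 0.21 ± 0.13 (SE, adjusted p = 0.394).

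Slc22a5 encodes the carnitine importer that feeds fatty acid oxidation. It had 9.14, 9.34 and 9.33 in bleomycin lungs, against 9.84, 9.76 and 9.89 in saline lungs, and fell by 0.56 (SE 0.11, limma adjusted p = 0.0276). Its second probe set differed by 0.12 (adjusted p = 0.672), and the mean of both by -0.22 (adjusted p = 0.186). Slc47a1, which extrudes organic cations in kidney and liver, had 5.24, 5.22 and 5.41 in bleomycin lungs, against 5.86, 5.78 and 6.01 in saline lungs. The groups were separate at a low signal, and it fell by 0.60 (SE 0.11, limma adjusted p = 0.0257). Slc22a5 passed in none of the fits with an array left out (adjusted p of 0.0522 to 0.0878), and Slc47a1 only without saline B (0.0601 to 0.0834 without saline A or C or bleomycin D, E or F).

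The 33 genes of family 25, classed as mitochondrial, had a median absolute difference of 0.11 log2 units, the lowest of the 10 classes. The value was 0.17 over all members and 0.16 over all genes. In limma 1 gene fell (3.03%, against 1.9% of all genes) and 0 rose (0 higher and 5 lower at an unadjusted p under 0.05). Slc25a42, which brings coenzyme A into mitochondria, had 8.05, 8.03 and 8.03 in bleomycin lungs, against 8.47, 8.50 and 8.64 in saline lungs. It fell by 0.50 (SE 0.10, limma adjusted p = 0.0315) and passed in none of the 6 fits with an array left out (adjusted p of 0.0657 to 0.109). Both exchangers of ADP for ATP were uncalled: Slc25a4 differed by -0.05 ± 0.11 (SE, limma adjusted p = 0.829) and Slc25a5 by 0.21 ± 0.16 (SE, adjusted p = 0.478). The phosphate carrier Slc25a3 had 12.51 to 12.55 in bleomycin and 12.47 to 12.61 in saline lungs, with a difference of -0.01 ± 0.10 (SE, limma adjusted p = 0.973). Slc25a39, which carries glutathione into mitochondria, differed by 0.18 ± 0.11 (SE, limma adjusted p = 0.39).

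Among 23 carriers of nucleosides and nucleotide sugars, 1 rose (4.35%, against 3.7% of all genes) and 0 fell in limma (3 higher and 0 lower at an unadjusted p under 0.05). Slc29a3, a nucleoside carrier of lysosomes whose human loss causes a histiocyte disorder, had 8.21, 8.31 and 8.55 in bleomycin lungs, against 7.70, 7.78 and 7.66 in saline lungs. It rose 1.56-fold (0.64 ± 0.12 log2 units, SE, limma adjusted p = 0.0238), while its second probe set differed by -0.10 (adjusted p = 0.738). The mean of both probe sets differed by 0.27 (limma adjusted p = 0.156), and the brighter one did not pass with arrays centred on ribosomal protein genes (adjusted p = 0.0651). With an array left out, Slc29a3 passed only without bleomycin D, with adjusted p of 0.0502 to 0.0852 without saline A, B or C or bleomycin E or F. The 18 nucleotide-sugar carriers of family 35, which feed glycosylation in the Golgi, had 0 calls in limma (2 higher and 0 lower at an unadjusted p under 0.05).

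In the other classes no gene passed. The 15 carriers of vitamins, choline and heme had 0 calls in limma (1 higher and 5 lower at an unadjusted p under 0.05). Over all 12393 genes, 1456 were higher and 1363 lower at that unadjusted p. The median difference of the class was -0.15. Slc23a1, an ascorbate carrier of epithelia, came nearest, at 7.48, 7.91 and 7.59 in bleomycin lungs, against 8.11, 8.18 and 8.28 in saline lungs. Its difference was -0.53 ± 0.13 (SE, limma adjusted p = 0.0625), and without bleomycin E it passed (adjusted p = 0.0372). The second probe set of Slc23a1, with a mean signal of 4.21, differed by -0.10 (limma adjusted p = 0.604). The 13 carriers of organic anions and vesicle contents had 0 calls in limma (1 higher and 1 lower at an unadjusted p under 0.05), and Slc10a3 had the largest difference, 0.40 ± 0.11 (SE, adjusted p = 0.071).

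**Figure D4:**
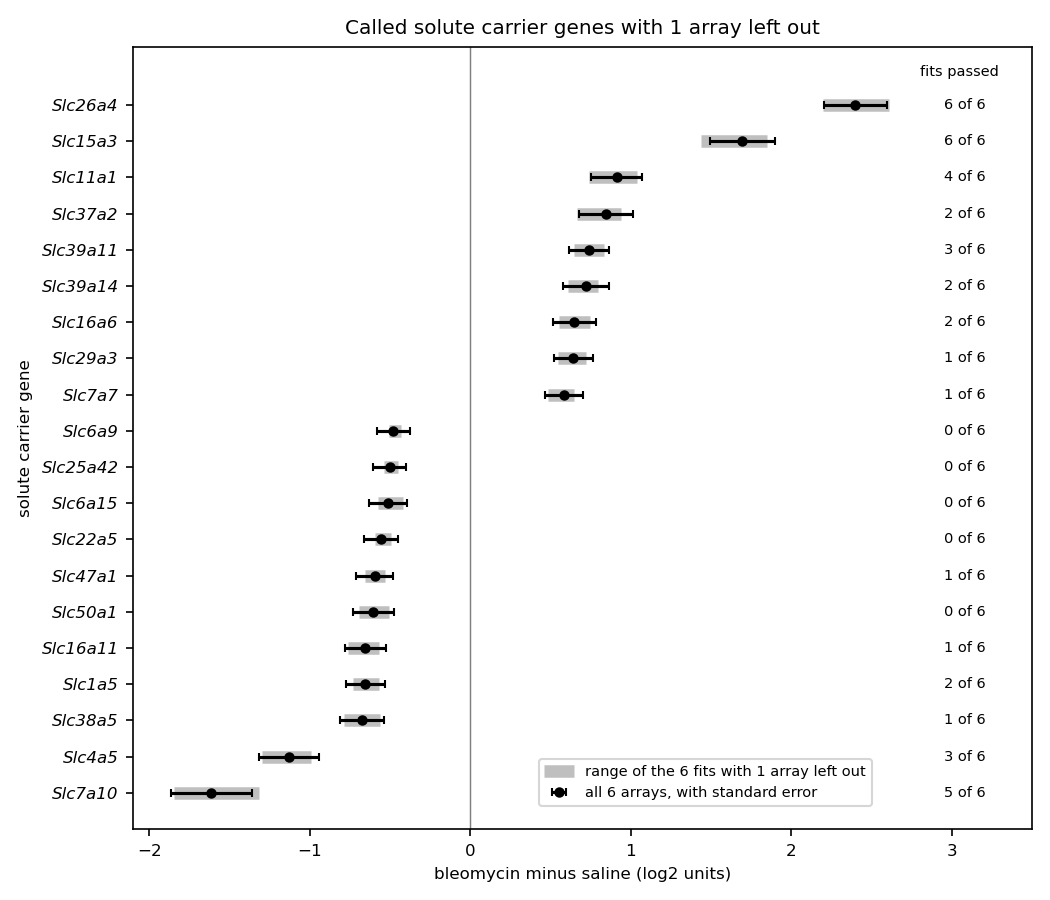
Bleomycin minus saline difference (log2 units) of the 20 called solute carrier genes with all 6 arrays (black points with standard errors), the range over the 6 fits with 1 array left out (grey bars), and the number of those fits that passed. Slc26a4 and Slc15a3 passed in 6 of 6, Slc7a10 in 5 of 6, and 5 genes in 0 of 6.

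Signal strength and the choice of probe set bear on these calls. A mean under 6 log2 units was found for 60 of the 261 members, of which 47 (78.3%) had a negative difference, as had 1639 of 2289 such genes in all (71.6%). When quantile normalization was repeated, the numbers were 37 of 60 (61.7%) and 1225 of 2289 (53.5%). The 9 genes that rose all had a mean of at least 6, and Slc6a15 and Slc47a1 were the genes under 6 that fell. Of the members, 99 had several probe sets. Among the 20 called genes 4 did (Slc22a5, Slc29a3, Slc39a14 and Slc6a9), and 0 of these 4 had a second probe set called in either direction in limma.

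Transport genes outside the Slc symbols were listed beside the members: organic anion carriers named Slco, subunits of the sodium pump and the epithelial sodium channel, chloride channels, aquaporins, ABC transporters and partners of solute carriers. Of 34 measured, 1 rose and 0 fell in limma (2 higher and 4 lower at an unadjusted p under 0.05). The riser was Clca3a1, a chloride channel accessory protein, by 1.59 log2 units (limma adjusted p = 0.00769). The median difference of this list was -0.06, against -0.08 for the solute carriers and -0.04 for all genes.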

How the data were processed

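Each value is a log2 signal of a probe set, deposited by the authors after RMA summary with quantile normalization, per the labels and the submitters' processing notes. No version or chip definition is given in the sources used here. That the base is 2 follows from the values, which reach 14.42. Of 22690 probe sets, 64 controls were left out and 22626 tested. Probe sets were named through the platform annotation held by GEO (20380 with 1 symbol, 691 with several, never used for a name, and 1555 with none listed), and all 261 members matched RefSeq by Entrez ID under the same symbol.

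The comparison of bleomycin with saline was fitted with limma 3.58.1 under R 4.3.3 (lmFit and eBayes, without covariates). Benjamini-Hochberg adjustment ran over the 22626 probe sets, with a threshold of 0.05, and every adjusted p in the text is limma's. A difference is bleomycin minus saline on the log2 scale, its SE is the moderated one, and a fold is 2 raised to it. Tested on simulated data for this comparison with 22626 probe sets, the fit recovered 84 of 100 probe sets altered by 1 log2 unit, 98 of 100 altered by 2, and 8 of its 190 calls were false. Of the 20 called members, only 2 rises and 2 falls reached 1 log2 unit, and recovery of smaller changes was not simulated.

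Named genes are every called member, those next to the threshold, those of the highest signal, the largest difference of a class without calls, and a fixed set of lung interest. The members, classes and lists were chosen with earlier results of these data known, and family 66 was put in its class after the data were seen. Labels describe each array as 1 mouse and give no pairing and no batch. Scanner files and detection calls are not used here. The alternatives were a filter on dim probe sets, a trended robust prior, array weights, ribosomal centring, repeated quantile normalization, the mean of a gene's probe sets, adjustment over 1 probe set per gene, a threshold of 0.01 and leaving out each array. Plots came from matplotlib 3.10.9 (Python 3.11.15).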

Additional observations from a re-analysis of the deposited data

Results flagged for a closer look

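For 3 uncalled members a probe set other than the brightest was called: Slc38a4 and Slc9a3r2, both in the direction of the brightest one, and Slc35f6. The second probe set of Slc35f6, of the nucleotide-sugar carrier family, had 7.93, 7.97 and 7.98 log2 units in bleomycin lungs, against 7.51, 7.44 and 7.51 in saline lungs. All 3 bleomycin arrays stood above the saline arrays, and the group means differed by 0.48 (limma adjusted p = 0.0323). The brighter probe set that stands for the gene differed by -0.06 (adjusted p = 0.848).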

How the results depend on the processing

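With arrays centred on ribosomal protein genes, 5 members were higher and 17 lower, against 9 and 11 as deposited, and 378 of all genes were lower, against 236. At a threshold of 0.01 the counts were 2 higher and 0 lower among members (Slc26a4 and Slc15a3), and 143 and 20 over all genes. With 1 array left out, members higher numbered 2 to 8 and members lower 1 to 6, and over all genes 163 to 385 were higher and 22 to 165 lower. Such fits have fewer arrays. Under the other 6 alternatives (the filter on dim probe sets, the trended robust prior, array weights, repeated quantile normalization, the mean of probe sets and adjustment over 1 probe set per gene), each of these counts stayed within 1.5 times. The 20 called genes kept their direction in all 13 alternative fits that measured them. Only ribosomal centring, repeated quantile normalization and the mean of probe sets could have reversed it, because the groups do not overlap for these genes. Slc6a9 did not pass with the trended robust prior (adjusted p = 0.06) or in the mean of its probe sets (0.0666), nor Slc39a14 in that mean (0.104). No paired analysis was possible because the letters A to F are each unique to 1 mouse. The array median and quantile normalization by the authors hide any shift of all genes, and without detection calls the background of dim probe sets could not be set.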
